A study of Mus musculus with 47 samples.

Results

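Platelet factor 4 (PF4) is a chemokine that platelets store and release, and heparan sulfate on cell-surface proteoglycans is a known binding site for it. The 10 genes described here encode heparan sulfate proteoglycans: the syndecans Sdc1, Sdc2, Sdc3 and Sdc4, the glypicans Gpc1, Gpc2, Gpc4, Gpc5 and Gpc6, and agrin (Agrn). They were chosen by name from the 35486 genes of the count table, and all 10 passed the filter on low counts that 17778 genes passed.

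To assess these genes with aging and treatment, RNA was sequenced from the hippocampus of C57BL/6J males given either mouse PF4 (mPF4, labelled PF4) or vehicle (Veh). The groups were Young Veh (n = 13, 3.75 to 5.26 months of age), Young mPF4 (n = 12, 4.08 to 5.03 months), Aging Veh (n = 12, 17.47 to 19.97 months) and Aging mPF4 (n = 10, 17.4 to 20.23 months), with 1 library per mouse. Recombinant mPF4 was injected intraperitoneally before each day of behavioral training and testing. RNA came from homogenized hippocampus, so fewer cells of a type and less RNA per cell cannot be told apart. Library numbers ran from 1 to 12 in Aging Veh, 13 to 23 in Aging mPF4 and 24 to 48 in young mice, so the order of the libraries cannot be told apart from age, or from treatment in aging mice.

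A heparan sulfate proteoglycan is a core protein that carries long, sulfated sugar chains. Syndecans cross the membrane with a single segment, glypicans are held on the outer surface by a lipid anchor, and agrin is mainly a secreted protein of basement membranes and synapses. The chains hold growth factors, chemokines and matrix proteins at the cell surface. In the brain, glypicans from astrocytes and neurons take part in the formation of excitatory synapses, and syndecan-3 is the main syndecan of neurons.

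Total counts ranged from 2242879 to 21112908, and 8 of the 47 libraries held fewer than 5000000. Hippocampal neuron markers (8 genes) averaged 7.57 to 7.9 on the scale of log2 counts-per-million (CPM) in every library. Astrocyte markers (6 genes) averaged 8.29 to 8.69, so RNA of neurons and astrocytes was read in every library. No other brain region was compared. Choroid plexus is the secretory tissue of the brain ventricles, which border the hippocampus, and its 10 markers (among them Ttr, the carrier of thyroid hormone) differed most between libraries. Their mean log2 CPM, the choroid plexus score, ranged from -0.13 to 5.84 in Young Veh (median 5.07), -0.03 to 6.13 in Aging Veh (median 0.911), 1.42 to 5.83 in Young mPF4 (median 5.44) and 0.05 to 5.72 in Aging mPF4 (median 1.3). Ttr was read in all 47 libraries, and 4 markers (Kcne2, Otx2, Aqp1 and Slc4a5) had no read in 1 to 3 libraries of an aging group. A pair of libraries also stood apart in length index, which is the mean log2 level of the genes in the upper quartile of transcript length minus that of the lower quartile. The index was -0.35 in Young Veh replicate 4 and -0.23 in Aging mPF4 replicate 8.

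The genes lie on separate chromosomes except Gpc5 and Gpc6, which neighbour each other on chromosome 14, and Sdc3 and Agrn, which are far apart on chromosome 4 (GRCm38). RefSeq promoter entries matched 7 of the 10 genes. All 7 held at least 1 GC box (GGGCGG on either strand) in the 250 bases before the start, against 32.7% of 32841 promoters. The promoters of Sdc3 and Agrn are printed because the levels of these genes moved together across libraries, and that of Gpc5 because it was the steadiest of the 10 genes within a group. Each runs 5′ to 3′ on the gene's strand with the GC boxes in capitals. The Sdc3 promoter (chr4:130792287-130792536, plus strand) had a GC content of 76.4% and 32 CpG dinucleotides. That of Agrn (chr4:156197489-156197738, minus strand) had 83.6% and 35, with 12 GC boxes that partly overlap. That of Gpc5 (chr14:115091965-115092214, plus strand) had 51.2% and 12, close to the 52.4% median GC content of all promoters, whose median CpG count was 6.
Sdc3: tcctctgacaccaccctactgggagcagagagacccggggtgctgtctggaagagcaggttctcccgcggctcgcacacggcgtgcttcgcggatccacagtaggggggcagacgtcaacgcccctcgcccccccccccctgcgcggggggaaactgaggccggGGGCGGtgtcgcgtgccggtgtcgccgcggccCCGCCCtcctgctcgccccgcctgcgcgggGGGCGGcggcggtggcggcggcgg
Agrn: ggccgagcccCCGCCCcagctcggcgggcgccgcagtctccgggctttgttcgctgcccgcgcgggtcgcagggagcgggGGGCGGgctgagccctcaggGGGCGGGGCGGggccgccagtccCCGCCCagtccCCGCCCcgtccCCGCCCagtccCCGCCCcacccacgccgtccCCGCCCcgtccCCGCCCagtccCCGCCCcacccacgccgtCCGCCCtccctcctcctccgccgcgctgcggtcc
Gpc5: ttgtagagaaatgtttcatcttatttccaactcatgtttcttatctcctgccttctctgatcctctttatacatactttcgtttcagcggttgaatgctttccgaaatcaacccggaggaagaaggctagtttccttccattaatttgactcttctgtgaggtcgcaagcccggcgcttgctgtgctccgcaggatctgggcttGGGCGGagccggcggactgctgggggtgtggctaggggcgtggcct
A GC box match describes these letters only and is not a measured binding site. The E-box CACGTG was found in none of the 7, against 6.02% of all promoters, and the letters TATAAA, searched on both strands, occurred in that of Gpc5 alone, on the strand opposite to the one printed, against 12.4%.

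To compare levels between genes, CPM were divided by the exon length in kilobases (kb), counting every annotated exon of a gene. The order of genes close in level depends on this choice of length. Sdc4, a widely expressed syndecan found at cell-matrix contacts, had the highest level, with a median of 59.9 CPM per kb and a range of 45.9 to 103.4 over the 47 libraries. It was above Sdc3 (median 28.1, range 11.8 to 34.04) in 47 of 47 libraries. Gpc1, a glypican of neurons and their axons, had a median of 24.3 CPM per kb and was below Sdc3 in 37 of 47 libraries. Gpc4, a synapse-promoting glypican that astrocytes secrete, followed at 18.5 CPM per kb and was below Gpc1 in 38 of 47 libraries. The order of these neighbours was therefore not the same in every library.

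Sdc2, a syndecan of dendritic spines, and Gpc5 had almost equal medians of 13.95 and 13.9 CPM per kb. Sdc2 was the higher in 24 of 47 libraries, so this pair could not be ordered on this measure. The exons of Gpc5 cover 4453 bases but its longest transcript has 2837, while both lengths are 3527 for Sdc2. With the longest transcript as the length, Gpc5 would have the higher median. Agrn, the organizer of acetylcholine receptors at the nerve-muscle synapse, had a median of 8.32 CPM per kb and was below Gpc5 in 47 of 47 libraries. Gpc6, another synapse-promoting glypican of astrocytes, had a median of 2.36 CPM per kb and a range of 1.19 to 3.3.

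Sdc1, the syndecan of epithelia and plasma cells, and Gpc2, a glypican of developing neurons, were near the detection limit. Their medians were 0.224 and 0.192 CPM per kb, and Sdc1 was the higher in 25 of 47 libraries. Sdc1 had 450 reads and Gpc2 had 459 reads over all libraries, with at most 29 and 38 reads in a library. Each had 0 reads in 3 libraries. A count of 0 allows up to 3 reads, or 0.582 to 0.883 CPM of Sdc1 and 0.255 to 1.11 CPM of Gpc2 in those libraries. Such limits cover counting error only.

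**Figure D1:**
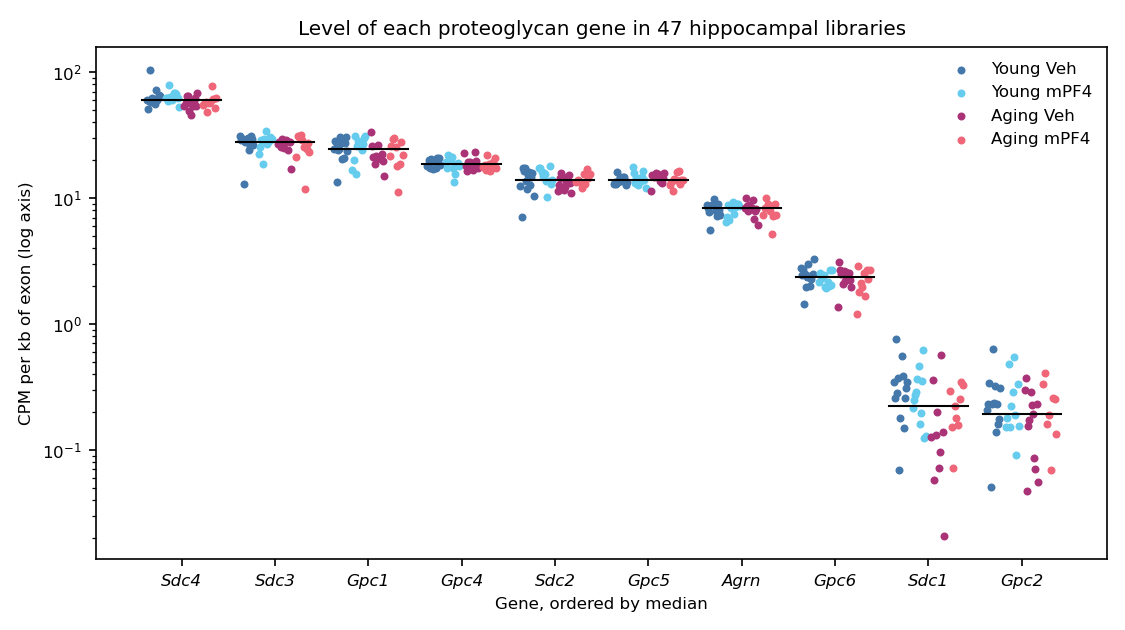
CPM per kb of exon on a log axis for each gene in 47 libraries, coloured by group, with a line at the median over all libraries. Medians ran from 59.9 for Sdc4 to 0.192 for Gpc2, and the points at 0 (3 libraries each for Sdc1 and Gpc2) cannot be drawn on a log axis.

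Counting was not stranded, so reads cannot be told apart where genes share exon bases. Overlap was taken between whole gene spans, introns included, and shared exon bases were not measured. Gpc2 overlaps Gm43720, which held 2937 reads against the 459 of Gpc2. Gpc1 overlaps 4 genes with 9197 reads in all, against 58461 of its own. Sdc3 overlaps a pair of genes with 5995 reads against 76477, and Gpc5 overlaps 3 genes with 1338 reads against 30385. The level of Gpc2 is uncertain for its low count, and whether reads of Gm43720 add to it was not tested.

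The genes also differed in how steady they were within a group. Gpc5 had the smallest spread, a within-group SD of 0.137 on the log2 scale, and varied 1.54-fold from the lowest to the highest library. Gpc4 had an SD of 0.153 and varied 1.71-fold. The median SD of all genes tested was 0.214. Sdc4 (0.19) and Agrn (0.208) lay just under it, and Sdc2 (0.247), Gpc6 (0.294), Sdc3 (0.305) and Gpc1 (0.342) lay above it. Sdc1 and Gpc2, the genes of lowest count, had SDs of 0.837 and 0.886.

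**Figure D2:**
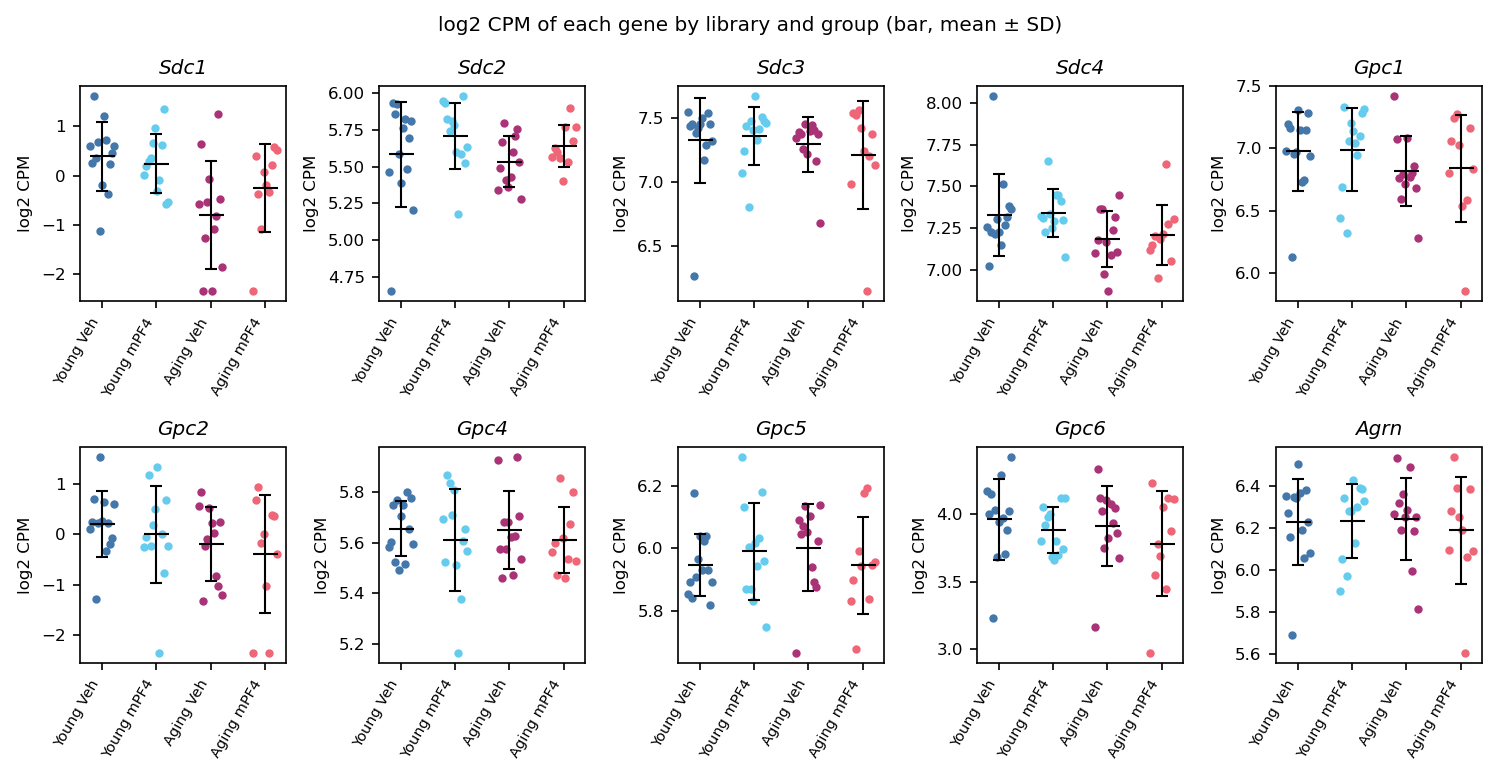
The log2 CPM of each gene in every library, by group, with the group mean and SD. The groups overlapped for all 10 genes, and single low libraries of Sdc3, Gpc1 and Agrn were Young Veh replicate 4, Aging Veh replicate 12 and Aging mPF4 replicate 8.

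To assess the effect of aging, Aging Veh was compared with Young Veh. None of the 10 proteoglycan genes passed an adjusted p of 0.05 in edgeR's quasi-likelihood test, adjusted over all genes by the Benjamini-Hochberg method, against a background of 2.76% of genes called (491 of 17778). DESeq2 called none of the 10 and 627 genes in all. At an unadjusted p of 0.05, 2 of the 10 (Sdc1 and Sdc4) passed, against 2661 of all genes. Of the 10 estimates, 7 were below 0 with a median log2 fold change of -0.07, and over all genes the median was -0.01 with 54.7% below 0.

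Sdc1 had the largest estimate. It ranged from 0.261 to 2.88 CPM in Young Veh (median 1.19) and from 0 to 2.17 CPM in Aging Veh (median 0.423). The groups overlapped, and 2 of 12 Aging Veh libraries (replicates 4 and 12, with 2 reads and 1 read) lay below every Young Veh library. Another 2 (replicates 3 and 7) had 0 reads, which allows up to 0.606 and 0.582 CPM, above the lowest Young Veh value. The fitted log2 fold change was -0.95 ± 0.352 (SE), or 48.2% lower with a 95% confidence interval of 15.6% to 68.2% lower, and the adjusted p in edgeR's test was 0.146. The call depended on a single library. Aging Veh replicate 10 had both the highest Sdc1 value of its group and the highest choroid plexus score of all libraries (6.13). Without it the log2 fold change was -1.5 with an adjusted p of 0.00907 (edgeR), and without the 2 libraries of highest score, Aging Veh replicate 10 and Young Veh replicate 4, it was -1.52 with an adjusted p of 0.009 (edgeR). With the choroid plexus score as a covariate it was -0.52 with an adjusted p of 0.478 (edgeR). The fitted log2 fold changes of the 10 choroid plexus markers ran from -1.13 to -0.80 with none called. Their mean log2 CPM, the score, averaged 4.17 ± 1.88 (SD, n = 13) in Young Veh and 2.17 ± 2.31 (n = 12) in Aging Veh, and their part in the difference of Sdc1 was not tested apart from that covariate.

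Sdc4 ranged from 129.8 to 263.4 CPM in Young Veh (median 154.1) and from 116.8 to 174.2 CPM in Aging Veh (median 144.2). The highest library was Young Veh replicate 4. Sdc4 had a log2 fold change of -0.16 ± 0.076 (SE), or 10.3% lower with an interval of 0.274% to 19.3% lower, and an adjusted p of 0.317 in edgeR's test. Without Young Veh replicate 4 the log2 fold change was -0.08 with an adjusted p of 0.526 (edgeR).

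The other syndecans differed by less than their spread. Sdc2 ranged from 24.9 to 60.9 CPM in Young Veh (median 51.5) and from 38.7 to 55.5 CPM in Aging Veh (median 45.4), with a log2 fold change of -0.09 ± 0.09 (SE). Sdc3 ranged from 76.8 to 186.9 CPM (median 172.7) and from 102.3 to 175.3 CPM (median 165.8) in the same groups, with a log2 fold change of -0.05 ± 0.113 (SE). Without Young Veh replicate 4 the estimate of Sdc3 was -0.12, and without Aging Veh replicate 12 it was -0.005. The intervals allowed Sdc2 to be up to 17.2% lower or 6.57% higher and Sdc3 to be up to 17.6% lower or 12.9% higher in aging mice.

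Among the glypicans, Gpc1 ranged from 69.6 to 158.8 CPM in Young Veh (median 125.8) and from 77.6 to 171.7 CPM in Aging Veh (median 109.9), with a log2 fold change of -0.17 ± 0.132 (SE). Gpc4 ranged from 44.8 to 55.5 CPM (median 50.2) and from 43.8 to 61.1 CPM (median 49.2), with an estimate of 0.004 ± 0.059. Gpc5 ranged from 56.3 to 72.1 CPM (median 60.8) and from 50.6 to 70.2 CPM (median 65.98), with an estimate of 0.06 ± 0.055. These 2 glypicans had the narrowest intervals, from 7.69% lower to 8.92% higher for Gpc4 and from 3.53% lower to 12.4% higher for Gpc5. Gpc6 ranged from 9.21 to 21.2 CPM (median 15.8) and from 8.77 to 20.0 CPM (median 15.6), with an estimate of -0.04 ± 0.106.

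Gpc2 ranged from 0.215 to 2.7 CPM in Young Veh (median 0.981) and from 0.202 to 1.59 CPM in Aging Veh (median 0.781). Its log2 fold change of -0.42 ± 0.36 (SE) had an interval from 54.7% lower to 23.2% higher, so the difference was within the error of the fit. Without Young Veh replicate 6 the estimate was -0.20. Agrn ranged from 51.5 to 90.6 CPM in Young Veh (median 77.2) and from 56.2 to 92.6 CPM in Aging Veh (median 76.4), with an estimate of 0.009 ± 0.079. With the GC index of each library as a covariate, the estimates of Sdc3, Gpc1 and Gpc2 turned to 0.16, 0.07 and 0.23, none called. The adjusted p of the 8 genes other than Sdc1 and Sdc4 ranged from 0.589 to 0.991 in edgeR's test.

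The age difference was also compared within mPF4-treated mice, a comparison added after the data had been examined and one that shares no library with the vehicle groups. None of the 10 genes was called, against 0.337% of all genes (60 of 17778). DESeq2 called none of the 10 and 90 genes in all, and 1447 genes but none of the 10 had an unadjusted p under 0.05. All 10 estimates were below 0, from -0.47 for Gpc2 to -0.02 for Gpc4, with a median of -0.1, and over all genes 48.3% were below 0 with a median of 0.004. With the choroid plexus score as a covariate, 4 of the 10 turned above 0, at 0.077 for Sdc1, 0.015 for Sdc2, 0.015 for Gpc4 and 0.035 for Gpc6. In this comparison all 10 choroid plexus markers (median -1.05) and all 6 of fibroblasts and meninges (median -0.52) were below 0. All 5 oligodendrocyte markers (median 0.24) and all 5 microglia markers (median 0.21) were above 0. Their part in the values of the proteoglycan genes was not tested apart from that covariate. Sdc1 had a log2 fold change of -0.33 ± 0.369 (SE) and Sdc4 of -0.13 ± 0.081, with adjusted p values of 0.883 and 0.746 in edgeR's test. Sdc1 ranged from 0.472 to 2.35 CPM in Young mPF4 (median 0.992) and from 0 to 1.31 CPM in Aging mPF4 (median 0.77). Sdc4 ranged from 134.8 to 201.3 CPM (median 159.2) and from 123.3 to 198.0 CPM (median 146.2), and 2 of 10 Aging mPF4 libraries lay below every Young mPF4 library.

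**Figure D3:**
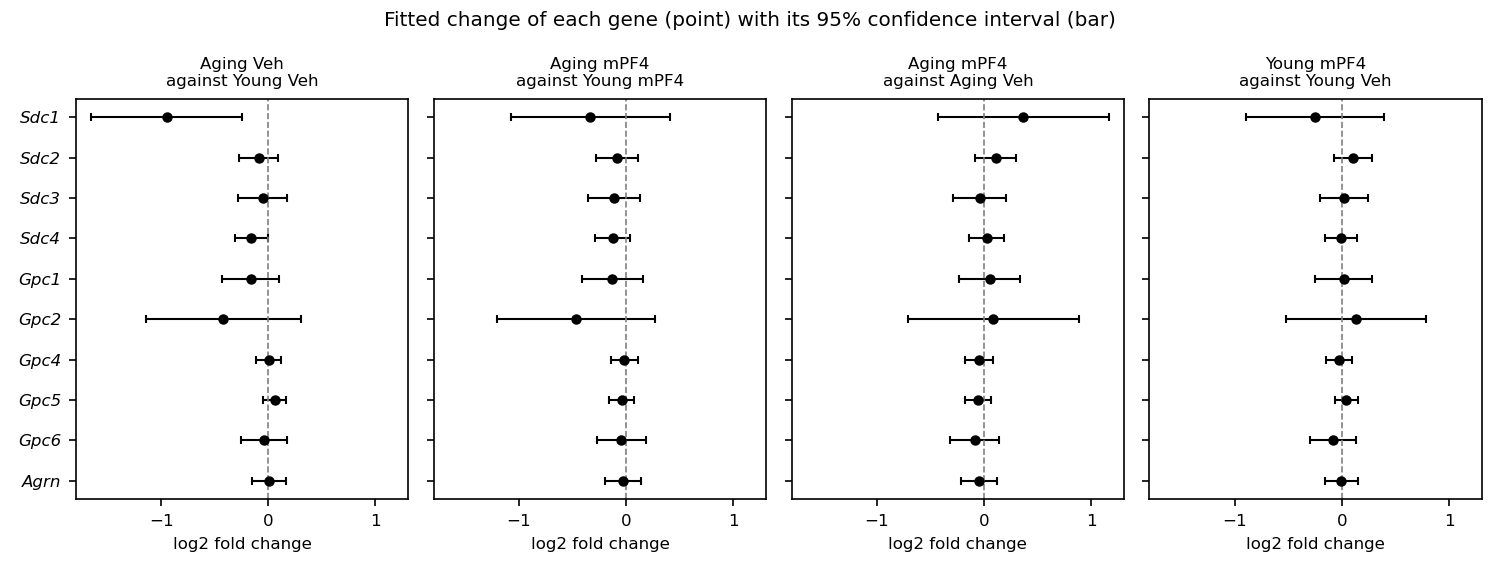
Fitted log2 fold change of each gene with its 95% confidence interval in 4 comparisons, those with age at the left and those with mPF4 at the right. The interval of Sdc1 and that of Sdc4 did not reach 0 for Aging Veh against Young Veh, though neither gene passed the adjusted test, and all other intervals spanned 0.

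To assess treatment in aging mice, Aging mPF4 was compared with Aging Veh. None of the 10 genes was called, against 0.0337% of all genes (6 of 17778). DESeq2 called none of the 10 and 24 genes in all, and at an unadjusted p of 0.05 none of the 10 passed against 1091 of all genes. Of the 10 estimates, 5 were below 0, with a median of -0.01, and over all genes 46.02% were below 0 with a median of 0.009.

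Sdc1 ranged from 0 to 1.31 CPM in Aging mPF4 (median 0.77) beside 0 to 2.17 CPM in Aging Veh (median 0.423). The estimate was 0.37 ± 0.399 (SE), with an interval from 0.74-fold to 2.25-fold and an adjusted p of 0.989 in edgeR's test. Without Aging Veh replicate 10 it was 0.93 and without Aging Veh replicate 12 it was 0.22. Sdc2 ranged from 42.1 to 59.5 CPM in Aging mPF4 (median 48.8), with an estimate of 0.11 ± 0.097 and an adjusted p of 0.969 (edgeR).

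The limits of the treatment effect were closest for Gpc4 and Gpc5. Sdc4 ranged from 123.3 to 198.0 CPM in Aging mPF4 (median 146.2), and the interval of its treatment effect ran from 9.18% lower to 13.997% higher. Gpc4 ranged from 43.8 to 57.7 CPM (median 47.7), with an interval from 11.5% lower to 5.71% higher. For Gpc5, at 51.1 to 73.0 CPM (median 61.4), the interval ran from 11.3% lower to 4.42% higher, and for Agrn, at 48.5 to 92.8 CPM (median 74.5), from 13.7% lower to 9.09% higher. Sdc3 ranged from 70.5 to 188.7 CPM (median 158.1) with an interval from 17.9% lower to 15.1% higher. A larger change of these 5 genes with mPF4 lay outside the 95% limits of the fit.

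Gpc1 ranged from 57.4 to 154.8 CPM in Aging mPF4 (median 122.3), with an estimate of 0.05 ± 0.141 (SE). Gpc6 ranged from 7.65 to 18.6 CPM (median 13.99), with an estimate of -0.09 ± 0.115. Gpc2 ranged from 0 to 1.73 CPM (median 0.747), with an interval from 38.9% lower to 85.2% higher. Library Aging mPF4 replicate 8 was the lowest of its group for Sdc3, Gpc1 and Agrn and the highest for Sdc4, and it had the lowest length index of that group.

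In young mice, Young mPF4 was compared with Young Veh. Neither a proteoglycan gene nor any other gene was called (0% of 17778), DESeq2 called 0, and 210 genes but none of the 10 had an unadjusted p under 0.05 in edgeR's test. Of the 10 estimates, 5 were below 0, from -0.25 ± 0.321 (SE) for Sdc1 to 0.14 ± 0.325 for Gpc2, with a median of 0.006. Sdc2 ranged from 36.05 to 62.99 CPM in Young mPF4 (median 54.0), and 2 of 12 libraries lay above every Young Veh library. Its estimate was 0.1 ± 0.089, from 5.07% lower to 21.7% higher. Gpc4 ranged from 35.7 to 58.1 CPM (median 49.3) and had an interval from 9.64% lower to 6.55% higher. For Gpc5, at 53.6 to 78.1 CPM (median 63.0), the interval ran from 4.48% lower to 11.2% higher.

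An interaction term tested whether mPF4 acted differently at the 2 ages. No gene was called (0% of 17778), DESeq2 called 0, and 698 genes but none of the 10 had an unadjusted p under 0.05 in edgeR's test. The estimates of the 10 genes ran from -0.1 for Gpc5 to 0.62 for Sdc1 on the log2 scale, with a median of -0.01. The interval of Gpc5 ran from -0.26 to 0.06 and that of Sdc1 from -0.41 to 1.64, so the limit for Sdc1 was wide. With single libraries left out, the Sdc1 estimate ran from 0.46 without Aging Veh replicate 12 to 1.17 without Aging Veh replicate 10, and it was not called.

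Summed over the 10 genes, the level was 174.0 ± 7.85 CPM per kb (SD, n = 13) in Young Veh and 163.5 ± 6.64 (n = 12) in Aging Veh. It was 175.4 ± 6.9 in Young mPF4 (n = 12) and 163.8 ± 7.25 in Aging mPF4 (n = 10). The sum was given no test, and Sdc4 is its largest part.

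The other genes of the pathway were described from lists chosen with earlier results of these data known. These were other heparan sulfate proteoglycans (8 genes), enzymes of the chain linker and polymerisation (11), enzymes of chain modification (22), chain cleavage and lysosomal breakdown (10), shedding enzymes (6), binding partners at synapse and membrane (12), chondroitin sulfate proteoglycans (9), and PF4 with its protein receptors (6). Of these, Hs3st6, Hpse, Hpse2 and Cxcr3, the best known chemokine receptor for PF4, did not pass the count filter. No gene of any list was called by edgeR or DESeq2 with age or with mPF4, against the same 2.76% and 0.0337% of all genes. At an unadjusted p of 0.05 in edgeR's test, 21 of the 80 genes tested passed with age under vehicle, against 14.97% of all genes. With age under mPF4 (Aging mPF4 against Young mPF4), 8 of the 80 passed, against 8.14% of all genes, and none was called. Estimates below 0 numbered 55 of the 80 with age under vehicle and 42 with age under mPF4. For mPF4 in aging mice 5 passed, against 6.14% of all genes. The shares with age under mPF4 and with mPF4 in aging mice are near those of all genes.

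With age, the genes of smallest p in each list gave the following values. Mdk (midkine), a growth factor that binds heparan sulfate, had a mean of 8.16 CPM in Young Veh and 6.57 CPM in Aging Veh, a log2 fold change of -0.32 ± 0.099 (SE), with 6 of 12 aging libraries below every young library. Ptprf, a receptor phosphatase of the family that binds proteoglycans, had a log2 fold change of -0.23 ± 0.071. Their adjusted p values were 0.0593 and 0.0645 in edgeR's test. Mdk was called when Young Veh replicate 6 or 7 or Aging Veh replicate 9, 10 or 12 was left out alone, and Ptprf when Young Veh replicate 4 or Aging Veh replicate 9, 10 or 11 was, with adjusted p values from 0.0182 to 0.0486 (edgeR). Notum, an enzyme listed here with the shedding enzymes, had a log2 fold change of -0.5 ± 0.165 (adjusted p = 0.0903, edgeR) and Mmp14, a membrane protease that sheds syndecans, of -0.22 ± 0.106. All 6 shedding enzymes had estimates below 0, the one nearest 0 at -0.001, with a median of -0.28, against 54.7% of all genes below 0. Notum was called without Aging Veh replicate 5 (adjusted p = 0.044, edgeR). The 6 markers of fibroblasts and meninges also had estimates below 0 in this comparison, with a median of -0.73, and 1 of them, the collagen gene Col1a1, was called lower (log2 fold change -0.88, adjusted p = 0.0437, edgeR). The mean log2 CPM of the fibroblast and meninges markers ranged from 2.6 to 4.62 in Young Veh and from 1.84 to 4.1 in Aging Veh. Of the other cell type markers, 2 were called higher with age, Rgs5 of pericytes (0.29) and Slc1a2 of astrocytes (0.19), and 2 lower, Aldh1l1 of astrocytes (-0.19) and Gpr17 of oligodendrocyte precursors (-0.56), with adjusted p values from 0.00026 to 0.0471 (edgeR). The other 5 of the 6 pericyte and mural markers had estimates below 0, the lowest -0.52, and 3 of the 6 astrocyte markers were below 0. The part of these markers, or of those of the choroid plexus, in the values of the shedding enzymes was not tested. With age under mPF4, 4 of the 6 shedding enzymes had estimates below 0 and 2 above it, with none called.

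Among the enzymes that shape the chains, Hs3st2, a sulfotransferase of neurons, had a log2 fold change with age of -0.33 ± 0.119 (SE) and Ndst4, a deacetylase and sulfotransferase, of 0.19 ± 0.074. For Ndst4, 8 of 12 Aging Veh libraries lay above every Young Veh library and 1 lay below every one. Its adjusted p was 0.17 in edgeR's test. Without the lowest library, Aging Veh replicate 1, Ndst4 was called, with a log2 fold change of 0.25 and an adjusted p of 0.0148 (edgeR). B3galt6 and B3gat3, which build the linker, had estimates of -0.13 ± 0.058 and -0.11 ± 0.062. Sgsh, a lysosomal enzyme, had an estimate of -0.21 ± 0.104. The median was -0.07 over the 21 modification enzymes tested, with 14 below 0, and -0.04 over the 11 linker and polymerisation enzymes, with 8 below 0.

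Of the other proteoglycans, Gpc3 had a log2 fold change with age of -0.36 ± 0.135 (SE) and Spock3 (testican-3) of 0.14 ± 0.065. Acan (aggrecan), the core of perineuronal nets, had a mean of 2.25 CPM in Young Veh and 3.35 CPM in Aging Veh, a log2 fold change of 0.47 ± 0.174, with 6 of 12 Aging Veh libraries above every Young Veh library. Its estimate with age under mPF4 had the opposite sign, at -0.57, and was not called. Ptprz1, a phosphatase that carries chondroitin sulfate, had an estimate of 0.06 ± 0.035. Pf4 itself averaged 0.807 CPM in Young Veh and 0.45 CPM in Aging Veh, an estimate of -0.83 ± 0.342, and Itgav, an integrin subunit, had 0.12 ± 0.06. The adjusted p of these genes ranged from 0.147 for Acan to 0.4658 for Ptprz1 in edgeR's test.

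With mPF4 in aging mice, Acan had the smallest p of all the lists. Its mean was 2.11 CPM in Aging mPF4 and 3.35 CPM in Aging Veh, a log2 fold change of -0.63 ± 0.194 (SE) with an adjusted p of 0.37 in edgeR's test. No Aging mPF4 library lay below every Aging Veh library. In young mice the estimate of Acan with mPF4 was 0.4, not called, and its interaction estimate was -1.03 with an adjusted p of 0.728 (edgeR). In aging mice Mdk had a log2 fold change of 0.29 ± 0.106 and Ext1, a polymerase of the heparan sulfate chain, of 0.18 ± 0.067, both with an adjusted p of 0.558 (edgeR). Gpr158, a receptor for glypican-4, had -0.18 ± 0.072 and Gpc3 had 0.27 ± 0.145. The Aging Veh libraries enter this comparison and that of age under vehicle with opposite sign. Opposite estimates in both, as for Acan, Mdk and Gpc3, are therefore not independent of each other.

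Other genes of small p for mPF4 in aging mice had adjusted p values from 0.89 to 1.0 in edgeR's test. Their log2 fold changes were 0.36 for Hs3st3a1 and 0.15 for Hs6st2 (sulfotransferases), 0.15 for Naglu and 0.08 for Gusb (lysosomal enzymes), 0.06 for B3gat3, 0.09 for Adam17 and 0.16 for Notum. Pf4 had 0.44, at a mean of 0.588 CPM in Aging mPF4. Ptprz1 had -0.06, and Spock2 had -0.04.

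To describe which genes varied together, the log2 CPM of the 45 gene pairs was correlated over 47 libraries after the group means were removed. With permutation tests of Pearson's r within groups, 15 pairs had an adjusted p under 0.05, 8 of them positive and 7 negative. Among these, Gpc5 with Sdc3, Sdc4 and Agrn did not pass by rank (adjusted permutation p = 0.131, 0.204 and 0.427). Sdc3, Gpc1 and Agrn rose and fell together. Pearson's r was 0.865 for Sdc3 with Agrn (rho = 0.794), 0.843 for Sdc3 with Gpc1 (rho = 0.69) and 0.818 for Gpc1 with Agrn (rho = 0.667). The permutation p was 1e-05 for each, the smallest that 100000 resamples can give, and 0.000112 after adjustment. Sdc4 ran against them, with an r of -0.778 with Sdc3 (rho = -0.529), -0.731 with Gpc1 (rho = -0.572) and -0.671 with Agrn (rho = -0.511), the largest of these 3 adjusted permutation p values being 0.00015. Gpc5 ran against Gpc1 (r = -0.64, rho = -0.522, adjusted permutation p = 0.000257). Without the 2 libraries farthest from the median of the first gene of each pair, r was 0.787, 0.744 and 0.71 for the positive trio and -0.56, -0.63 and -0.553 for Sdc4 with the same genes.

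Properties of the libraries moved with this pattern. The length index had an r of 0.734 with Sdc3, 0.59 with Agrn and 0.576 with Gpc1, and of -0.596 with Sdc4 (adjusted permutation p = 0.0002, 0.00075, 0.0008 and 0.00187). Spearman's rho was 0.446, 0.369, 0.274 and -0.224, and without the 2 libraries of most extreme index r was 0.474, 0.328, 0.311 and -0.234. By rank, the adjusted permutation p was 0.0114 for Sdc3, 0.0473 for Agrn, 0.163 for Gpc1 and 0.268 for Sdc4, so the relations of Gpc1 and Sdc4 passed by Pearson's r alone. Gpc6 also moved with the index (r = 0.483, rho = 0.354, adjusted permutation p = 0.00294), with an r of 0.288 without those 2 libraries. Within the groups, r of Sdc3 was 0.831 in Young Veh, 0.651 in Aging Veh, 0.576 in Young mPF4 and 0.848 in Aging mPF4. For Sdc4 it was -0.769, -0.288, -0.169 and -0.897 in the same order, for Gpc1 0.715, 0.195, 0.567 and 0.755, and for Agrn 0.642, 0.461, 0.499 and 0.779. For Gpc6 it was 0.876, 0.542, -0.071 and 0.237. The 2 libraries of most extreme index belong to Young Veh and Aging mPF4.

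A GC index, the mean log2 level of the genes in the upper quartile of transcript GC content minus that of the lower quartile, also moved with these genes. Its r was 0.548 with Sdc3, 0.529 with Gpc1, 0.536 with Gpc2 and 0.444 with Agrn (adjusted permutation p = 0.0013, 0.00215, 0.00303 and 0.00985), and rho was 0.472, 0.459, 0.335 and 0.318. By rank, the adjusted permutation p was 0.012 for Sdc3 and for Gpc1, and 0.0921 for Gpc2 and for Agrn. Without the 2 libraries of most extreme index, r was 0.414, 0.368, 0.403 and 0.289. Within the groups r of Sdc3 was 0.754 in Young Veh, 0.231 in Aging Veh, 0.244 in Young mPF4 and 0.837 in Aging mPF4. In the same order it was 0.658, 0.449, 0.25 and 0.771 for Gpc1, 0.321, 0.388, 0.302 and 0.819 for Gpc2, and 0.718, -0.068, 0.276 and 0.792 for Agrn. The r within each group and its difference between groups were not tested. The transcripts of Gpc1 (59.1% GC), Sdc3 (58.7%) and Agrn (56.5%) were the richest in G and C of the 10, against a median of 49.1% over genes tested. After the GC index was removed, the r of Sdc3 with Agrn was 0.83 and that of Sdc3 with Sdc4 was -0.777. The part of library preparation or RNA quality in these relations was not tested.

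**Figure D4:**
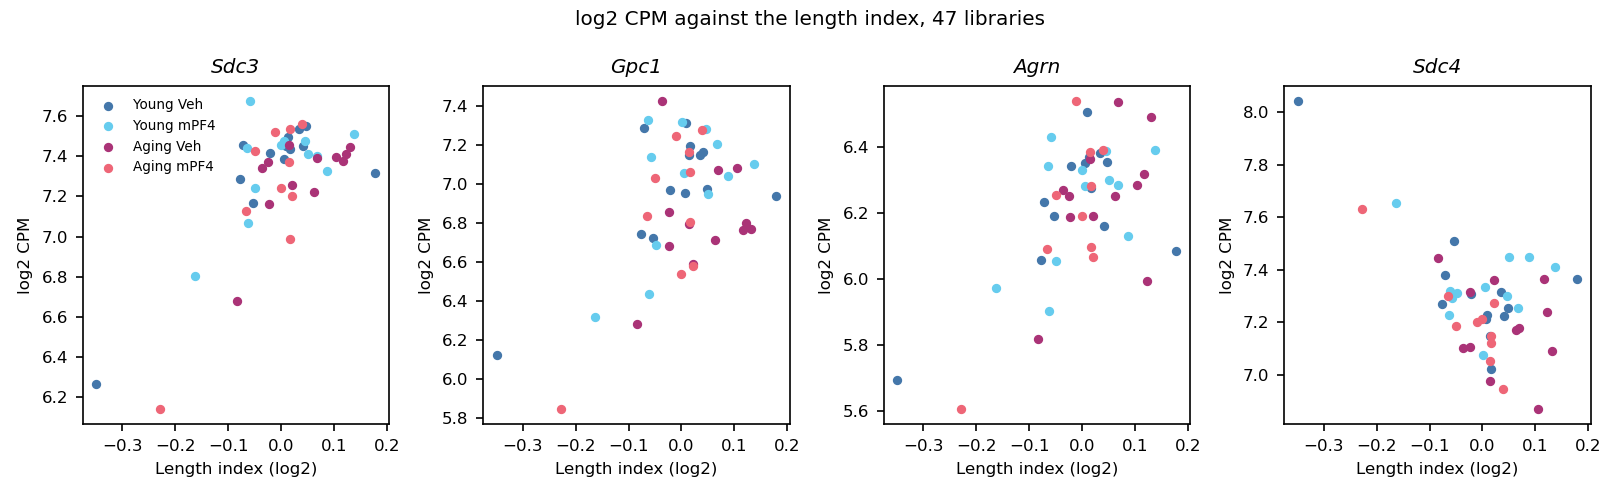
The log2 CPM of Sdc3, Gpc1, Agrn and Sdc4 against the length index of each of 47 libraries, coloured by group. Young Veh replicate 4 (index -0.35) and Aging mPF4 replicate 8 (index -0.23) lay lowest for Sdc3, Gpc1 and Agrn and among the highest for Sdc4.

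The genes whose levels were most like each member's, by Pearson's r over 47 libraries without group means, are given as a description. For Sdc3 they were Atp13a2 (r = 0.961), Aatk (0.958) and Ptprs (0.952), a receptor phosphatase that binds heparan sulfate. Ptprs was also among those of Agrn (0.889), after Fbxl16 (0.899) and Snph (0.895). For Gpc1 they were Rasl10b (0.945), Arf3 (0.943) and Nptxr (0.94), a receptor of neuronal pentraxins. Sdc4 was most like Lyrm4 (0.866), Timmdc1 (0.864) and Lrrc8a (0.852).

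The likeness was lower for the other members. Gpc2 was most like Gm19582 (0.775), Ccdc142 (0.755) and Zfp839 (0.73), and Gpc5 like Inpp5f (0.772), 6430562O15Rik (0.747) and 2410002F23Rik (0.721). Gpc6 was most like Rhpn2 (0.752), Eogt (0.724) and Utrn (0.71), and Sdc1 like Tor4a (0.705), Tinagl1 (0.695) and Sult1a1 (0.679). Gpc4 was most like Fam84b (0.664), 9930014A18Rik (0.649) and Vasn (0.592), and Sdc2 like D630024D03Rik (0.64), Cpq (0.608) and Krt23 (0.607).

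Since libraries differed in choroid plexus RNA, each gene was set against the choroid plexus score after the group means were removed. Of the 10 genes, 3 had an adjusted permutation p under 0.05. They were Sdc1 (r = 0.511, rho = 0.431, adjusted permutation p = 0.00275), Sdc2 (r = 0.475, rho = 0.602, adjusted permutation p = 0.00275) and Gpc6 (r = 0.391, rho = 0.419, adjusted permutation p = 0.034). Without the 2 libraries farthest from the median score r was 0.481, 0.512 and 0.367. Within Young Veh, Aging Veh, Young mPF4 and Aging mPF4, r was 0.808, 0.181, 0.6 and 0.72 for Sdc1. It was 0.409, 0.741, 0.397 and 0.702 for Sdc2, and 0.228, 0.226, 0.302 and 0.75 for Gpc6. The relation of Sdc1 was thus weakest in Aging Veh, a difference between groups that was not tested.

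The scores fell to either side of a gap from 3.35 to 4.17, with 23 libraries below and 24 above it. The median of Sdc2 was 5.52 log2 CPM below the gap and 5.79 above it, that of Sdc1 was -0.38 and 0.43, and that of Gpc6 was 3.75 and 4.03. Below the gap, r with the score was 0.175 for Sdc1, -0.38 for Sdc2 and 0.205 for Gpc6, and above it 0.439, 0.126 and -0.04. The r of Sdc2 and that of Gpc6 differed in sign between the sides, that of Sdc1 was positive on both but lower below the gap, and neither side was tested. Of the libraries above the gap, 8 were Young mPF4 and 8 Young Veh, while Aging mPF4 and Aging Veh had 4 each.

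**Figure D5:**
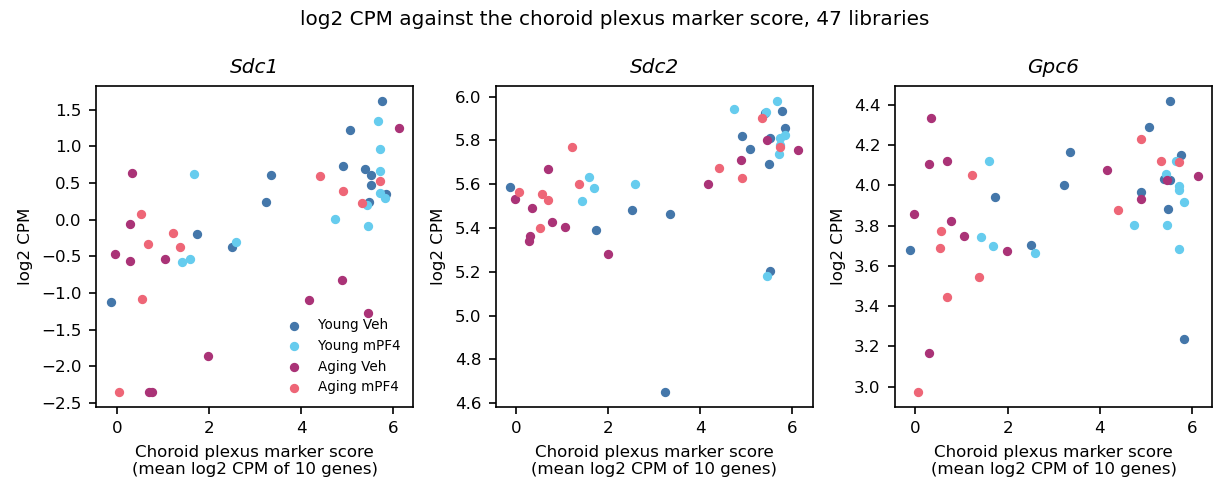
The log2 CPM of Sdc1, Sdc2 and Gpc6 against the choroid plexus score of each of 47 libraries, coloured by group. Libraries with a score above 4.17 lay higher in median than those below 3.35 for each gene, and the highest score, 6.13, belongs to Aging Veh replicate 10.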

How the data were processed

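Counts of reads per gene were analysed for 47 hippocampal libraries, 1 per male mouse, in 4 groups named from the labels. The authors deposited raw counts. Per the labels, cDNA was made by Smart-Seq2, tagmented with Nextera XT and sequenced without strand information, and the submitters' processing notes name Trim Galore (0.3.7), STAR (2.5.3a), DESeq2 and the build GRCm38. The counter and annotation are not given in the sources used here. The authors left out libraries of low coverage.

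The counts were tested with edgeR (4.0.16, R 4.3.3): TMM scaling, filterByExpr, robust quasi-likelihood fits of the 4 groups over all libraries, and Benjamini-Hochberg adjustment with a threshold of 0.05. Confidence intervals (95%) are of the fitted log2 fold change. CPM use TMM library sizes, log2 CPM a prior count of 2, and exon lengths GENCODE M21. DESeq2 (1.42.0) and other scalings, filters, covariates and libraries were alternatives. Permutation tests of relations were two-sided, with 100000 resamples within groups, adjusted over 10 genes for an index and 45 pairs. The relations to the indices and pairs, the GC index and the comparison within mPF4-treated mice were chosen after seeing the data. The length index took genes with transcripts over 4594 bases and under 2006 bases, and the GC index those over 54.2% and under 44.1% GC.

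The members and lists were chosen with earlier results of these data known. Named genes were all members, the 2 genes of smallest p per list with age and with mPF4 in aging mice, any called gene of a pathway list, marker genes beside the results they touch, and the 3 genes most like each member. A gene named by this rule in each of 2 lists is not reported here. Depth limits Sdc1 and Gpc2 in particular. No pair of libraries of a group agreed within sampling noise. The fits were tested on simulated data.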

Additional observations from a re-analysis of the deposited data

Results flagged for a closer look

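In the group of 10 Aging mPF4 libraries, 4 of the 10 proteoglycan genes had a single library far from the others, and it was replicate 8 each time. Its log2 CPM was the lowest of the group for Sdc3 (6.14), Gpc1 (5.85) and Agrn (5.61) and the highest for Sdc4 (7.63), with a gap to the nearest library that exceeded Dixon's critical value as a share of the group's range. Chance gives such a gap in about 1 in 20 groups, and 20 gaps were looked at (both ends for each of 10 genes), in genes whose levels correlate. The other groups, of 12 or 13 libraries, were not looked at in this way. Young Veh replicate 4 was likewise the lowest of its group for Sdc3 (6.27), Gpc1 (6.12) and Agrn (5.69) and the highest for Sdc4 (8.04). So was Aging Veh replicate 12, at 6.68, 6.28, 5.82 and 7.45 in that order. Young mPF4 replicate 4 was the lowest of its group for Sdc3 (6.8) and Gpc1 (6.32), though not for Agrn (5.97), and the highest for Sdc4 (7.65). Each of these libraries had the lowest length index of its group. Without Aging mPF4 replicate 8 the log2 fold change of mPF4 in aging mice was 0.05 for Sdc3, 0.01 for Agrn, 0.14 for Gpc1 and -0.03 for Sdc4. The same library had a length index of -0.23 and a GC index of -0.26, and the part of these in its values was not tested.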

How the results depend on the processing

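In each of the 5 comparisons, 0 of the 10 members were called under every alternative except for age under vehicle, where 1 (Sdc1) was called without the 2 libraries of highest choroid plexus score and 0 to 1 with single libraries left out (1 without Aging Veh replicate 10). Of the other lists, 0 genes were called for age under vehicle, but 5 with the length index as a covariate (Hs3st2, Mmp14, Lrrtm4, Ptprf and Dag1), 3 with the GC index (Ndst1, Ptn and Lrp1), 3 without the 2 libraries of highest score (Notum, Ptprf and Dag1) and 0 to 2 with single libraries left out, most often Mdk or Ptprf. Many estimates turned sign, none of them called, and the cause was not tested. The following log2 fold changes had the opposite sign to the estimate from all libraries. With the choroid plexus score as a covariate, it was 0.0271 (Sdc2), 0.0573 (Gpc6) and -0.0392 (Agrn) for age under vehicle, -0.0118 (Sdc2) for the interaction, 0.0766 (Sdc1), 0.0153 (Sdc2), 0.0149 (Gpc4) and 0.0353 (Gpc6) for age under mPF4. With the length index as a covariate, it was -0.0725 (Agrn) for age under vehicle, 0.0946 (Sdc3), -0.0639 (Sdc4), 0.00906 (Gpc6) and 0.0413 (Agrn) for mPF4 in aging mice, -0.00421 (Sdc3), 0.0306 (Sdc4) and -0.0139 (Gpc1) for mPF4 in young mice, -0.0242 (Sdc2), 0.0988 (Sdc3), -0.0945 (Sdc4), 0.10 (Gpc2), 0.0981 (Gpc6) and 0.0652 (Agrn) for the interaction. With the GC index as a covariate, it was 0.16 (Sdc3), 0.069 (Gpc1), 0.23 (Gpc2), -0.0073 (Gpc5) and 0.0213 (Gpc6) for age under vehicle, -0.0793 (Gpc1) and -0.43 (Gpc2) for mPF4 in aging mice, 0.00428 (Sdc4), -0.00211 (Gpc1) and -0.0606 (Gpc2) for mPF4 in young mice, -0.0772 (Gpc1) for the interaction, 0.0149 (Gpc4) and 0.0376 (Agrn) for age under mPF4. With a replicate block, it was -0.00895 (Gpc4) for age under vehicle, -0.0173 (Gpc1) and -0.17 (Gpc2) for mPF4 in aging mice, 0.0104 (Sdc4) for mPF4 in young mice, -0.0287 (Gpc1) for the interaction. In libraries of at least 5000000 counts, it was -0.0441 (Agrn) for age under vehicle, 0.0303 (Sdc3), 0.0441 (Gpc6) and 0.00872 (Agrn) for mPF4 in aging mice, 0.00314 (Gpc4) for mPF4 in young mice, 0.0204 (Sdc3), 0.11 (Gpc6) and 0.0223 (Agrn) for the interaction, 0.0106 (Gpc6) for age under mPF4. Without the 2 libraries of highest choroid plexus score, it was -0.038 (Gpc4) and -0.0263 (Agrn) for age under vehicle, -0.0172 (Gpc2) for mPF4 in aging mice, -0.0458 (Sdc3), 0.0717 (Sdc4) and -0.0408 (Gpc1) for mPF4 in young mice, -0.0342 (Sdc4), 0.0194 (Gpc4) and 0.0656 (Gpc6) for the interaction. With a filter of 1 CPM in 10 libraries, it was -0.0035 (Sdc2) for the interaction. In DESeq2, it was 0.0146 (Gpc2) for the interaction. With single libraries left out, the signs turned within these ranges: -0.0348 to 0.0462 (Agrn), -0.0239 to 0.0222 (Gpc4) and -0.0973 to 0.00996 (Gpc6) for age under vehicle, -0.0866 to 0.0145 (Agrn), -0.14 to 0.26 (Gpc2), -0.0898 to 0.0473 (Sdc3) and -0.0291 to 0.047 (Sdc4) for mPF4 in aging mice, -0.0721 to 0.0243 (Agrn) and -0.0514 to 0.00439 (Gpc4) for age under mPF4, -0.0457 to 0.0264 (Agrn), -0.0417 to 0.0698 (Gpc1), -0.0651 to 0.35 (Gpc2), -0.0497 to 0.00153 (Gpc4), -0.0469 to 0.0644 (Sdc3) and -0.0356 to 0.0702 (Sdc4) for mPF4 in young mice, -0.0836 to 0.0152 (Agrn), -0.0186 to 0.12 (Gpc1), -0.27 to 0.15 (Gpc2), -0.0568 to 0.00964 (Gpc4), -0.061 to 0.0503 (Gpc6), -0.0343 to 0.0583 (Sdc2), -0.11 to 0.0254 (Sdc3) and -0.0484 to 0.0581 (Sdc4) for the interaction. Same-numbered libraries did not deviate together (median correlation -0.08 to 0.11 between groups, and 0 to 2 libraries of a pair of groups correlated best with their own number), so the numbers do not pair them. The replicate block changed no call of a member. Within groups alone, the number of members related to the choroid plexus score, 3 over all libraries, was 1 in Young Veh and 0 in the other groups, and r turned sign to 0.17 (Gpc5) in Young mPF4 and to 0.205 (Sdc3), 0.11 (Gpc1), 0.52 (Gpc2) and 0.056 (Agrn) in Aging mPF4. Depth limits Sdc1 and Gpc2, with at most 29 and 38 reads in a library.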
